A study of Saccharomyces cerevisiae with 8 samples.

Results

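The genes described here encode the yeast proteasome. They were picked by a rule on names, which was set with earlier results of these data known. It took the open reading frames (ORFs) whose standard symbol is RPN, RPT, PRE or PUP followed only by digits, together with *SCL1*, which gave 34 of the 6212 ORFs in the deposited table. Of these, 18 encode subunits of the regulatory particle, namely 8 of its lid, 4 non-ATPase subunits of its base (Rpn10, which sits between lid and base, is counted here) and the 6 ATPases of the base. A further 14 encode the 20S core, 7 in its alpha rings and 7 in its beta rings. Of the other two, *RPN14* encodes an assembly chaperone of the base and *RPN4* the transcription activator of the proteasome genes, and both were kept apart from the subunits.

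The proteasome degrades proteins that carry ubiquitin chains. The regulatory particle binds the chain, removes it and unfolds the protein, which is then cut inside the barrel of the core, whose outer alpha rings form the gate and whose inner beta rings hold the active sites. In *Saccharomyces cerevisiae* most of these genes share an upstream element that is bound by Rpn4, an activator with a very short life because the proteasome itself degrades it, and this loop adjusts transcript levels to the demand for proteasomes.

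The arrays address what loss of the type 2C protein phosphatase Ptc6, alone or together with the related phosphatase Ptc1, does to transcript levels in cells growing without any treatment. Each of 8 two-colour arrays of amplified yeast ORFs received cDNA of 1 mutant and of its wild type (wt), BY4741. The double mutant *ptc1 ptc6* (labelled ptc1::NAT ptc6::kanMX4) was compared with wt in 4 arrays, and the single mutant *ptc6* (labelled ptc6::kanMX4) was compared with wt in the other 4. All strains had the BY4741 background and were harvested in log phase from YPD, a rich medium, at 28 °C. Every replicate, of which a mutant had 2 (labelled biological), went on a pair of arrays with the dyes Cy3 and Cy5 exchanged between mutant and wt, so that n = 2 per mutant. No *ptc1* single mutant was analysed here, and the labels name no second clone of either strain. In *ptc1 ptc6*, experiments 1 and 2 belong to replicate 1 and experiments 3 and 4 to replicate 2. In *ptc6*, experiments 1 and 2 belong to replicate 1 and experiments 5 and 6 to replicate 2. The mutant carried Cy3 in experiments 1, 3 and 5 and Cy5 in experiments 2, 4 and 6.

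Values are log2 ratios of mutant over wt, so a positive value means more transcript in the mutant. An array held a value for 4050 to 4710 ORFs in *ptc1 ptc6* and for 4308 to 5537 ORFs in *ptc6*. *PTC1* lay between -3.43 and -1.95 on the 4 *ptc1 ptc6* arrays and between -0.13 and 0.41 on the 3 *ptc6* arrays that measured it. *PTC6* lay at -3.16 and -4.73 on the 2 *ptc1 ptc6* arrays that measured it and between -2.66 and -2.18 on 3 *ptc6* arrays, so the deleted genes followed the labels. Across ORFs, the means of both replicates correlated with r = 0.76 in *ptc1 ptc6* (4596 ORFs) and with r = 0.12 in *ptc6* (4824 ORFs). The ratios also spread less in *ptc6*. Their SD over ORFs was 0.28 and 0.20 in replicates 1 and 2 of *ptc6*, against 0.38 and 0.45 in *ptc1 ptc6*. Since r depends on that spread, the lower r alone does not show that single-gene values were less repeatable in *ptc6*. Whether both sets of arrays shared wt RNA is not stated, and a wt sample shared between sets would enter both mutants' ratios.

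No proteasome gene passed the test in either mutant. In *ptc1 ptc6*, 0 of the 32 genes with enough values had an adjusted p under 0.05 (limma, Benjamini-Hochberg over all ORFs tested), on arrays where 14.1% of all tested ORFs passed. Without adjustment, 2 of 32 had a p under 0.05, *RPN12* and *SCL1*, both below wt, against 34.0% of all ORFs. In *ptc6*, 0 of 34 passed (0.00% of all ORFs did), and 3 of 34 had an unadjusted p under 0.05, *PRE7*, *PUP3* and *RPN13*, all above wt, against 8.00% of all ORFs. No proteasome gene reached a 2-fold change of its mean in *ptc1 ptc6*, where 1.68% of ORFs did so upward and 0.294% downward, or in *ptc6*, where 0.00% did so upward and 0.0549% downward. The mean ratios of the proteasome genes corresponded to 0.758-fold to 1.14-fold of wt in *ptc1 ptc6* and to 0.807-fold to 1.30-fold in *ptc6*. The 95% intervals of the means reached no lower than -0.66 and no higher than 0.47 in *ptc1 ptc6*, and no lower than -0.73 and no higher than 0.66 in *ptc6*, so a 2-fold change (1 on the log2 scale) lay outside every interval.

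The proteasome genes lay close together in both mutants. The SD of the mean log2 ratio among them was 0.13 in *ptc1 ptc6* and 0.13 in *ptc6*, against 0.39 and 0.18 among all tested ORFs of each mutant. Their median was -0.0068 in *ptc1 ptc6* (32 genes) beside -0.048 over all ORFs, and 0.13 in *ptc6* (34 genes) beside 0.022. In *ptc1 ptc6*, 15 of 32 means were above 0 (42.6% of all ORFs), and 20 of 32 once each array was centred on its median. In *ptc6*, 30 of the 34 means were above 0 (56.0% of all ORFs were), also with every array centred on its own median, and the exceptions were *RPN1*, *RPN4*, *RPN9* and *PRE5*. The size depended on the dye, with 24 of 33 above 0 and a median of 0.071 on the Cy3 arrays alone, and 31 of 33 and 0.20 on the Cy5 arrays alone. With *ptc6* replicate 2 alone the count was 25 of 32 and the median 0.083, beside 0.047 over all ORFs, and with replicate 1 alone they were 28 of 32 and 0.22, beside -0.0065. The ribosomal protein genes, another large set of co-regulated subunits, fell in *ptc1 ptc6* in 102 of 119 cases (8.49% of all ORFs fell), with a median of -0.71. In *ptc6* their median was 0.024 and their SD 0.079, smaller than that of the proteasome genes. That median hid a change of sign between the *ptc6* replicates. Only 7 of 120 ribosomal genes lay above 0 in replicate 1 (median -0.204), whereas 119 of 120 did so in replicate 2 (median 0.245). The 15 genes of the vacuolar ATPase had a median of 0.14 in *ptc6*, close to that of the proteasome genes. It stemmed from replicate 2 (0.235, against 0.005 in replicate 1), while the proteasome median was higher in replicate 1. Whole gene sets thus moved between *ptc6* replicates by more than the proteasome median of 0.13.

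**Figure D1:**
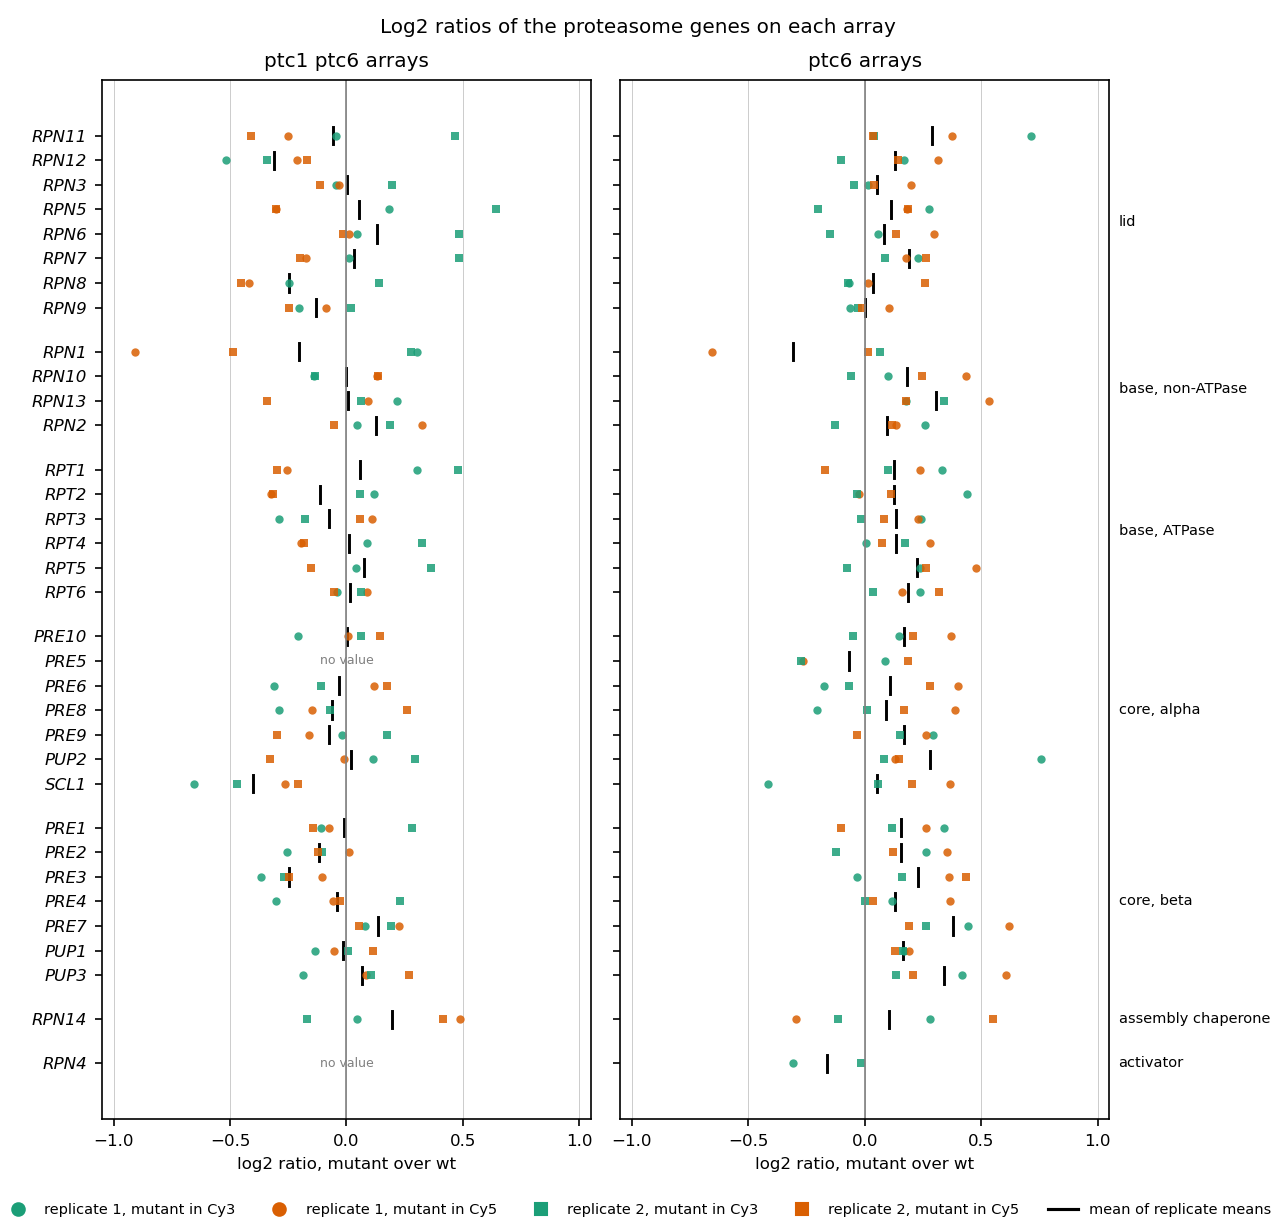
Log2 ratio (mutant over wt, horizontal axis) of each of the 34 proteasome genes (rows, grouped by sub-assembly) on each *ptc1 ptc6* array (left) and *ptc6* array (right). Circles are biological replicate 1 and squares replicate 2, colour gives the dye of the mutant, and the black bar is the mean of the replicate means; in *ptc1 ptc6* 15 of 32 bars lie right of 0 (20 of 32 with each array centred on its median), and in *ptc6* 30 of 34 do.

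The lid cleaves ubiquitin chains from the substrate through Rpn11, which pairs with Rpn8, while its other subunits form the scaffold. The 8 lid genes had means between -0.31 and 0.13 in *ptc1 ptc6* and between -0.00050 and 0.29 in *ptc6*. The lowest lid gene in *ptc1 ptc6* was *RPN12*, a scaffold subunit needed for lid assembly, with -0.52, -0.21, -0.34 and -0.17 in experiments 1 to 4, and in *ptc6* it had 0.17, 0.31, -0.10 and 0.14 in experiments 1, 2, 5 and 6. All 4 *ptc1 ptc6* values of *RPN12* were below 0 and below all 4 *ptc6* values. Its mean was -0.31 ± 0.078 in *ptc1 ptc6* (SD, n = 2; adjusted p = 0.106) and 0.13 ± 0.16 in *ptc6* (adjusted p = 0.762). Over the alternatives its adjusted p in *ptc1 ptc6* ranged between 0.0284, with all 8 arrays fitted and the replicate as a random block, and 0.518, without replicate 1.

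The highest lid gene in *ptc1 ptc6* was *RPN6*, a scaffold subunit that clamps the lid to the core. It had 0.047, 0.011, 0.48 and -0.016 in *ptc1 ptc6* and 0.055, 0.30, -0.15 and 0.14 in *ptc6*. Experiment 3 stood apart among the *ptc1 ptc6* arrays behind its mean of 0.13 ± 0.15 (SD, n = 2; adjusted p = 0.454), since the other three lay near 0. The deubiquitinase gene *RPN11* had -0.044, -0.25, 0.46 and -0.41 in *ptc1 ptc6* and 0.71, 0.38, 0.038 and 0.036 in *ptc6*, so it was low with the mutant in Cy5 and not with the mutant in Cy3 in the double mutant, and high in one replicate of the single mutant. Its partner *RPN8* had means of -0.24 ± 0.12 in *ptc1 ptc6* (SD, n = 2; adjusted p = 0.167) and 0.033 ± 0.084 in *ptc6*. The other scaffold genes, *RPN3*, *RPN5*, *RPN7* and *RPN9*, had means between -0.13 and 0.054 in *ptc1 ptc6* and between -0.00050 and 0.19 in *ptc6*.

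In the base, Rpn1 and Rpn2 are the large scaffolds on which ubiquitin receptors and shuttle factors dock, and Rpn10 and Rpn13 are ubiquitin receptors. *RPN2* was the highest of these in *ptc1 ptc6*, with 0.044, 0.32, 0.19 and -0.054, and had 0.26, 0.14, -0.13 and 0.12 in *ptc6*. *RPN1* was the lowest, with 0.30, -0.91, 0.28 and -0.49 in *ptc1 ptc6*, and in *ptc6* it had no value in experiment 1 and -0.66, 0.065 and 0.012 in experiments 2, 5 and 6. In the double mutant the *RPN1* values split by dye and not by replicate, since both arrays with the mutant in Cy3 lay above 0 and both with the mutant in Cy5 lay far below. Its mean in *ptc1 ptc6* was -0.20 ± 0.14 (SD, n = 2; adjusted p = 0.453). With the Cy3 arrays alone the mean turned to 0.29 (adjusted p = 0.218), and with the Cy5 arrays alone it was -0.70 and passed the test (adjusted p = 0.0342).

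The ubiquitin receptor gene *RPN13* had 0.21, 0.092, 0.063 and -0.34 in *ptc1 ptc6* and 0.18, 0.53, 0.34 and 0.17 in *ptc6*, where all 4 arrays were above 0. Its means were 0.0067 ± 0.21 in *ptc1 ptc6* and 0.31 ± 0.068 in *ptc6* (SD, n = 2; adjusted p = 0.602). *RPN10* averaged -0.0018 ± 0.0011 in *ptc1 ptc6* and 0.18 ± 0.12 in *ptc6*, and its small SD in the double mutant stood beside a dye split of -0.14 and -0.14 with the mutant in Cy3 against 0.13 and 0.13 with it in Cy5.

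The 6 ATPases (Rpt1 to Rpt6) form the ring that unfolds the substrate and threads it into the core. Their means spanned -0.12 to 0.075 in *ptc1 ptc6* and 0.12 to 0.23 in *ptc6*, the narrowest range of any sub-assembly in both mutants. *RPT5* was the highest in *ptc1 ptc6*, with 0.043, 0.36 and -0.15 in experiments 1, 3 and 4 and no value in experiment 2, and had 0.24, 0.48, -0.076 and 0.26 in *ptc6*. Its replicate 1 in *ptc1 ptc6* was thus a single array with the mutant in Cy3, without its dye swap. The next highest, *RPT1*, had a mean of 0.058 from 4 arrays. *RPT2* was the lowest, with 0.12, -0.33, 0.06 and -0.32 in *ptc1 ptc6* and 0.44, -0.024, -0.034 and 0.11 in *ptc6*. In *RPT5* and *RPT2* the *ptc1 ptc6* values were above 0 with the mutant in Cy3 and below 0 with it in Cy5, as they also were for *RPT1* and *RPT4*. *RPT3* had the reverse, with -0.29 and -0.18 in Cy3 and 0.11 and 0.056 in Cy5. *RPT6* did not split by dye, with -0.040 and 0.063 in Cy3 and 0.090 and -0.055 in Cy5. *RPT2* (YDL007W) lies directly beside the deleted *PTC1*, with 0 annotated genes between them, and its mean was -0.12 ± 0.017 where *PTC1* was replaced and 0.12 ± 0.12 where it was intact (SD, n = 2; adjusted p = 0.479 and 0.76). The difference between the mutants was -0.24 with a 95% interval of -0.60 to 0.12.

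The alpha rings of the core make up its gated ends. Their genes had means between -0.40 and 0.018 in *ptc1 ptc6*, where *PRE5* had no value on any array, and between -0.066 and 0.28 in *ptc6*. *SCL1* was the lowest of the 32 genes tested in *ptc1 ptc6*, with -0.66, -0.26, -0.47 and -0.21, and had -0.42, 0.36, 0.055 and 0.20 in *ptc6*. All 4 *ptc1 ptc6* values were below 0, whereas in *ptc6* it had the lowest value of any proteasome gene in experiment 1 and values above 0 on the other arrays, and the groups overlapped. The mean of *SCL1* was -0.40 ± 0.084 in *ptc1 ptc6* (SD, n = 2) with an adjusted p of 0.0544, just outside the threshold, and 0.051 ± 0.11 in *ptc6* (adjusted p = 0.925). Over the alternatives its adjusted p in *ptc1 ptc6* ranged between 0.0234 and 0.356, and it passed with the replicate as a random block (0.0234) and with each mutant fitted alone (0.0488).

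The highest alpha-ring gene in *ptc1 ptc6* was *PUP2*, with 0.11, -0.011, 0.29 and -0.33, and it had 0.76, 0.13, 0.083 and 0.15 in *ptc6*. The *ptc6* value of experiment 1 stood far above the other three, which were close to each other. Its means were 0.018 ± 0.048 in *ptc1 ptc6* and 0.28 ± 0.23 in *ptc6* (SD, n = 2; adjusted p = 0.938 and 0.602). *PRE5*, measured in *ptc6* alone, had 0.089, -0.27, -0.27 and 0.19 and was the single core gene with a mean below 0 there. *PRE6*, *PRE8*, *PRE9* and *PRE10* had means between -0.076 and 0.0015 in *ptc1 ptc6* and between 0.089 and 0.17 in *ptc6*.

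The beta rings hold the peptidase sites, which belong to Pre3 (caspase-like), Pup1 (trypsin-like) and Pre2 (chymotrypsin-like). The 7 beta-ring genes had means between -0.25 and 0.14 in *ptc1 ptc6* and between 0.13 and 0.38 in *ptc6*, and this was the sub-assembly with the highest median in *ptc6*, 0.16. *PRE3* was the lowest in *ptc1 ptc6*, with -0.37, -0.10, -0.27 and -0.25, and had -0.035, 0.36, 0.16 and 0.43 in *ptc6*. Its 4 *ptc1 ptc6* values all lay below 0 and below all 4 *ptc6* values. The mean of *PRE3* was -0.25 ± 0.014 in *ptc1 ptc6* and 0.23 ± 0.094 in *ptc6* (SD, n = 2; adjusted p = 0.151 and 0.602).

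*PUP1* also kept its groups apart by a narrow margin, with -0.14, -0.052, 0.006 and 0.12 in *ptc1 ptc6* and 0.17, 0.19, 0.16 and 0.13 in *ptc6*. The *ptc6* values of *PUP1* were the most even of any proteasome gene, and the highest *ptc1 ptc6* value was just below the lowest of them. The third active-site gene, *PRE2*, had -0.25, 0.009, -0.10 and -0.12 in *ptc1 ptc6* and 0.27, 0.35, -0.12 and 0.12 in *ptc6*, and these overlapped.

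*PRE7*, which encodes a beta-ring subunit without a peptidase site, was the highest core gene in both mutants. It had 0.081, 0.22, 0.19 and 0.054 in *ptc1 ptc6* and 0.44, 0.62, 0.26 and 0.19 in *ptc6*, and was the one proteasome gene above 0 on all 8 arrays. Its mean was 0.14 ± 0.022 in *ptc1 ptc6* and 0.38 ± 0.22 in *ptc6* (SD, n = 2), with adjusted p of 0.449 and 0.602. *PUP3*, which encodes another subunit of this kind, averaged 0.067 ± 0.17 in *ptc1 ptc6* and 0.34 ± 0.24 in *ptc6* (adjusted p = 0.602), and *PRE1* and *PRE4* averaged -0.012 and -0.040 in *ptc1 ptc6* and 0.15 and 0.13 in *ptc6*.

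Counted by array, 1 of the 31 proteasome genes with a full set of *ptc1 ptc6* values was above 0 on all 4 arrays, *PRE7* (15.6% of all ORFs), and 3 of 31 were below 0 on all 4, *RPN12*, *SCL1* and *PRE3* (29.9%). In *ptc6*, 9 of 32 were above 0 on all 4 arrays (13.8% of all ORFs) and 0 of 32 were below 0 on all 4 (7.14%). The 9 were *RPN7*, *RPN11*, *RPN13*, *RPT4*, *RPT6*, *PRE7*, *PUP1*, *PUP2* and *PUP3*. Above 0 in the means of both replicates were 7 of 32 genes in *ptc1 ptc6* (31.2% of all ORFs) and 21 of 34 in *ptc6* (30.2%).

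The lid and base were then set against the core. The median of the regulatory particle genes was 0.0041 in *ptc1 ptc6* and that of the core genes -0.032 (18 and 13 genes), and in *ptc6* they were 0.13 and 0.16 (18 and 14 genes). The order of both sub-assemblies in *ptc1 ptc6* followed the dye. With the mutant in Cy3, the regulatory particle median exceeded that of the core by 0.24 in experiment 1 and by 0.13 in experiment 3, and with the mutant in Cy5 it was lower than that of the core, with differences of -0.12 in experiment 2 and -0.17 in experiment 4. In *ptc6* the difference was 0.070 and -0.15 in experiments 1 and 2 and -0.10 and -0.050 in experiments 5 and 6, so there the core had the higher median on 3 of 4 arrays. The sign of the regulatory particle median in *ptc1 ptc6* itself changed with the dye, being 0.13 with the Cy3 arrays alone (18 genes) and -0.19 with the Cy5 arrays alone (17 genes), and it was 0.062 with each array centred on its median. The core median was negative with either dye in *ptc1 ptc6* (-0.064 and -0.043) and 0.027 after such centring.

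**Figure D2:**
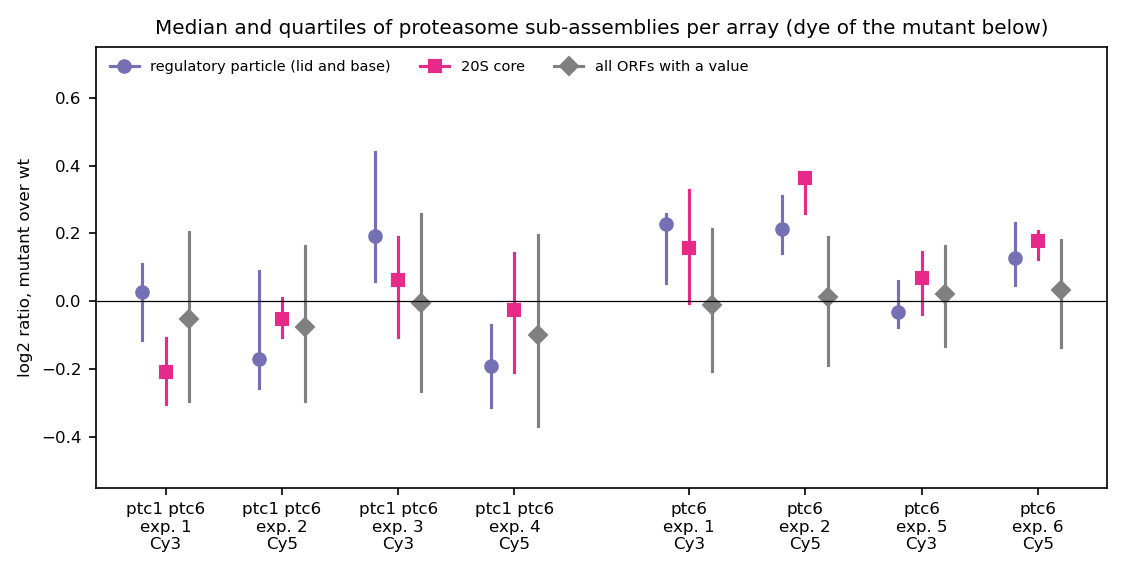
Median (symbol) and quartiles (line) of the log2 ratio of the regulatory particle genes, the 20S core genes and all ORFs with a value, on each array; the dye of the mutant stands under the experiment. In *ptc1 ptc6* the regulatory particle lies above the core with the mutant in Cy3 (0.027 against -0.21 and 0.19 against 0.064) and below it with the mutant in Cy5 (-0.17 against -0.052 and -0.19 against -0.027).

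Gene by gene, the ratio with the mutant in Cy3 minus that with the mutant in Cy5 had a median of 0.27 over 17 regulatory particle genes in *ptc1 ptc6* and was above 0 in 12 of them. Over 13 core genes the median was -0.12, with 4 above 0, and over all ORFs it was 0.024. *RPN1* had the highest value, 0.99, followed by *RPN5* with 0.72 and *RPT1* with 0.67, and *RPN14* had the lowest, -0.51. In *ptc6* the same contrast had medians of -0.094 in the regulatory particle and -0.14 in the core, beside -0.028 over all ORFs. The regulatory particle genes are the longer ones, with a median of 1297.5 bp (471 to 2982) against 764.5 bp (597 to 867) in the core. Across the proteasome genes, the dye contrast and gene length gave a Spearman rho of 0.44 (Pearson r = 0.42, 31 genes) in *ptc1 ptc6* and of 0.13 (r = 0.11, 32 genes) in *ptc6*, and over all ORFs the rho was 0.33 (3560 ORFs) and 0.19 (3938 ORFs). These describe genes measured on the same arrays, which are not independent points. A dye swap cancels such a contrast in the mean of a replicate as far as it is equal on both arrays, and its part in the single values was not tested.

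**Figure D3:**
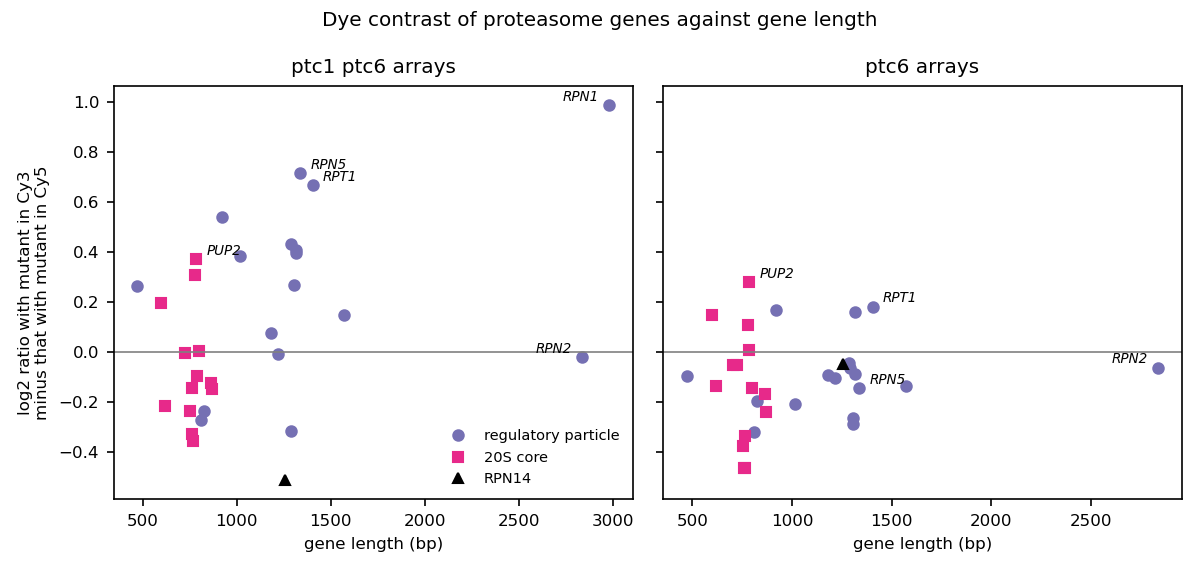
Log2 ratio with the mutant in Cy3 minus that with the mutant in Cy5 (vertical axis) against gene length in bp (horizontal axis), for each proteasome gene with all arrays measured, in *ptc1 ptc6* (left) and *ptc6* (right). In *ptc1 ptc6* 12 of 17 regulatory particle genes lie above 0 against 4 of 13 core genes, with *RPN1* at 0.99.

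The mutants were next compared with each other, which asks what the added loss of Ptc1 does to these genes. In the difference, *ptc1 ptc6* minus *ptc6*, 0 of 32 proteasome genes passed the test (limma adjusted p under 0.05), where 0.206% of all ORFs did. Without adjustment, 3 of 32 had a p under 0.05, against 24.3% of all ORFs. These were *PRE3* with a difference of -0.48 (SE 0.15, 95% interval -0.83 to -0.12, adjusted p = 0.126), *SCL1* with -0.45 (SE 0.15, adjusted p = 0.144) and *RPN12* with -0.44 (SE 0.16, adjusted p = 0.159). With all 8 arrays fitted and the replicate as a random block, *PRE3* and *RPN12* passed (adjusted p = 0.0321 and 0.0428). *RPN1* had the largest value in the other direction, 0.11 (95% interval -0.49 to 0.70). For *RPN1*, *ptc6* replicate 1 was a single array with the mutant in Cy5, and without that replicate the difference was -0.24.

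The difference was below 0 in 28 of the 32 genes, where 61.0% of all ORFs were below 0. It was below 0 in 13 of 13 core genes and in 15 of 18 regulatory particle genes, the exceptions being *RPN1*, *RPN2* and *RPN6*, and above 0 in *RPN14*. Its median was -0.17 over the 32 genes, -0.24 in the core and -0.15 in the regulatory particle, beside -0.090 over all ORFs. A difference below 0 was not particular to the proteasome genes. The median was -0.74 over 117 ribosomal protein genes, with 0 above 0, and -0.38 over the 15 vacuolar ATPase genes, with 1 above 0. Without *ptc6* replicate 1 the medians were -0.11 over the 32 genes, -0.12 in the core and -0.11 in the regulatory particle, beside -0.087 over all ORFs. Without *ptc1 ptc6* replicate 1 they were -0.12, -0.16 and -0.12, beside -0.096. In either case most of the distance from all ORFs was gone. It was not gone without replicate 2, where the median of the 32 genes was -0.23 (*ptc1 ptc6* replicate left out) and -0.26 (*ptc6* replicate left out), beside -0.087 and -0.074. After centring each array the medians were -0.099 over the 32 genes, -0.17 in the core and -0.086 in the regulatory particle, beside -0.018. The difference was then below 0 in 25 of 32 genes and in 12 of 18 regulatory particle genes. In the core, 13 of 13 stayed below 0 with either dye alone and after centring each array, and 12 of 13 without *ptc1 ptc6* replicate 1. In the regulatory particle, 8 of 17 were below 0 with the Cy3 arrays alone, where the median was 0.017, and 16 of 17 with the Cy5 arrays alone, where it was -0.36. The arrays of the mutants did not overlap in 3 of the 30 genes measured on all 8, *PRE3*, *PUP1* and *RPN12*, all lower in *ptc1 ptc6* (16.9% of all ORFs), and in 0 of 30 were they higher (5.36%). Both replicate means of *ptc1 ptc6* lay below both of *ptc6* in 19 of 32 genes (39.5% of all ORFs) and above them in 0 of 32 (20.2%). Since each mutant was hybridised on arrays of its own, a difference between mutants cannot be told apart from one between the sets of arrays.

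**Figure D4:**
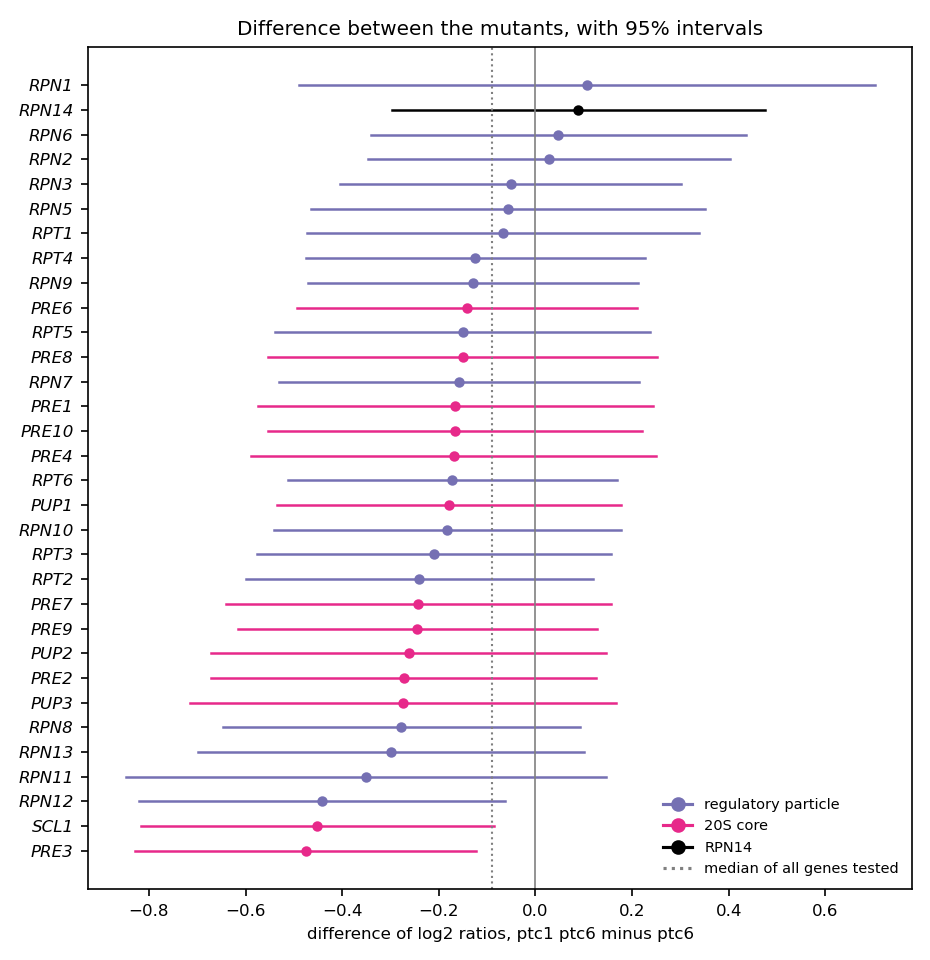
Difference of the mean log2 ratios, *ptc1 ptc6* minus *ptc6* (horizontal axis), with its 95% interval from the limma fit, for the 32 proteasome genes tested in both mutants, sorted. The point is below 0 in 28 of 32 genes, the interval excludes 0 without adjustment in *PRE3*, *SCL1* and *RPN12*, and the dotted line is the median of all genes tested, -0.090.

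*RPN4* itself was thinly measured. It had no value on any *ptc1 ptc6* array, and in *ptc6* it had -0.31 in experiment 1 and -0.017 in experiment 5, both with the mutant in Cy3, and none in experiments 2 and 6. The mean was -0.16 ± 0.21 (SD, n = 2; adjusted p = 0.74), with a 95% interval of -0.48 to 0.15. The level of the activator in *ptc1 ptc6* was therefore not measured, and in *ptc6* it was 1 of the 4 proteasome genes with a mean below 0.

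Of the genes that act on *RPN4*, the activators *PDR3* and *HSF1* and the ubiquitin ligase gene *UBR2*, whose product marks Rpn4 for degradation, had no value on any array. *YAP1*, an activator of the oxidative stress response that also drives *RPN4*, had 0.17, -0.42, 0.36 and -0.50 in *ptc1 ptc6* and -0.022, -0.14, -0.22 and -0.12 in *ptc6*. *MUB1*, whose product works with Ubr2, had 0.36, -0.42, 0.088 and -0.47 in *ptc1 ptc6* and 0.021, -0.42, -0.074 and -0.17 in *ptc6*. In the double mutant both were above 0 with the mutant in Cy3 and below 0 with it in Cy5, and in *ptc6* both had means below 0, -0.13 and -0.16. *PDR1*, an activator of drug resistance genes and of *RPN4*, had 0.87, -0.19, 0.16 and 0.094 in *ptc1 ptc6*, and in *ptc6* it had values in experiments 5 and 6 only, -0.35 and -0.057. None of the 3 tested in *ptc1 ptc6* and of the 2 tested in *ptc6* passed, with adjusted p between 0.227 and 0.743.

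The base chaperone gene *RPN14* was the highest of the 32 genes tested in *ptc1 ptc6*, with 0.046, 0.49, -0.17 and 0.41, and had 0.28, -0.29, -0.11 and 0.55 in *ptc6*. In the double mutant the Cy5 arrays gave the high values, which is the reverse of *RPN1*. Its means were 0.19 ± 0.10 in *ptc1 ptc6* and 0.10 ± 0.16 in *ptc6* (SD, n = 2; adjusted p = 0.275 and 0.812).

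Among 17 genes for other assembly factors and proteins bound to the proteasome, 14 were tested in *ptc1 ptc6*, where 1 rose and 2 fell, and 16 in *ptc6*, where 0 passed. Of all tested ORFs, 5.64% rose and 8.49% fell in *ptc1 ptc6*. The medians of the list were 0.039 in *ptc1 ptc6* and 0.075 in *ptc6*. *HSM3*, another chaperone of the base, rose in *ptc1 ptc6*, with 0.43, 0.71 and 0.49 in experiments 1, 3 and 4 and no value in experiment 2 (mean 0.51 ± 0.12, SD, n = 2; adjusted p = 0.0339), and had 0.49, -0.20, -0.13 and 0.25 in *ptc6*. *PBA1*, a chaperone of the alpha ring, fell in *ptc1 ptc6*, with -0.65, -0.36, -0.34 and -0.52 (mean -0.47 ± 0.053; adjusted p = 0.0474), and had -0.19, -0.051, 0.22 and 0.16 in *ptc6*. The adjusted p of *PBA1* was 0.0636 once each array was centred on its median.

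*CIC1*, whose product binds the core and also takes part in ribosome assembly, fell in *ptc1 ptc6*, with -0.37, -0.60, -0.26 and -0.75 (mean -0.49 ± 0.011, SD, n = 2; adjusted p = 0.0339), and had 0.12, 0.029, 0.25 and 0.14 in *ptc6*, where all 4 values were above 0. *UMP1*, the maturation factor that is enclosed in the nascent core, did not pass, with -0.068, 0.28, 0.038 and 0.29 in *ptc1 ptc6* and 0.39, 0.39, 0.20 and 0.066 in *ptc6* (adjusted p = 0.444 and 0.602). Its values were above 0 on 3 of 4 arrays in *ptc1 ptc6* and on 4 of 4 in *ptc6*.

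A further 2 genes of this list were picked out after their values were seen, because they had the same sign on all 8 arrays. *FUB1*, whose product binds the core, had 0.31, 0.62, 0.17 and 0.53 in *ptc1 ptc6* and 0.38, 0.46, 0.20 and 0.27 in *ptc6*, and has 1 gene between it and *PTC6*, which is deleted in both mutants. *BLM10*, which encodes an activator that caps the core, had -0.35, -0.57, -0.14 and -0.31 in *ptc1 ptc6* and -0.27, -0.48, -0.24 and -0.41 in *ptc6*. Neither passed, with adjusted p of 0.054 in *ptc1 ptc6* and 0.602 in *ptc6* for *FUB1*, and of 0.0842 in *ptc1 ptc6* and 0.602 in *ptc6* for *BLM10*.

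Further along the pathway, 0 of 11 genes for ubiquitin shuttles and the Cdc48 segregase passed in *ptc1 ptc6* (14.1% of all ORFs) and 0 of 12 in *ptc6* (0.00%), with medians of -0.11 and -0.0083. Of the ubiquitin conjugation genes, 1 of 20 fell in *ptc1 ptc6* (8.49% of all ORFs), and 0 of 20 passed in *ptc6* (0.00%), with medians of 0.021 and 0.042. For lists of this size, both counts in *ptc1 ptc6* are near the background. The gene that fell was *RSP5*, an essential ubiquitin ligase of membrane protein sorting, with -0.35, -0.53, -0.23 and -0.62 in *ptc1 ptc6* (mean -0.43 ± 0.0095, SD, n = 2; adjusted p = 0.0465) and -0.38, -0.10, -0.039 and -0.026 in *ptc6*. After centring each array its adjusted p was 0.0643. *UBI4*, the stress-induced polyubiquitin gene, did not pass and was picked out after its values were seen, with 0.46, 0.78, 1.12 and 1.10 in *ptc1 ptc6* and 0.93, 0.95, -0.34 and -0.49 in *ptc6*. Its means were 0.86 ± 0.35 and 0.26 ± 0.96 (SD, n = 2; limma adjusted p = 0.102 and 0.834). The fit uses 1 spread for both mutants, so the wider spread in *ptc6* also entered the test in *ptc1 ptc6*. In *ptc6* the replicates of *UBI4* had opposite signs, with means of 0.94 and -0.42. *UBC5*, also picked out afterwards, was not tested in *ptc1 ptc6*, since it had values in replicate 2 only. These were 0.58 and 1.58 in experiments 3 and 4, with a mean past 2-fold (1.68% of all ORFs were 2-fold up). The study lists *UBC5* as up-regulated in *ptc1 ptc6*. In *ptc6* it had 0.145, 0.61, -0.15 and 0.016. In the difference between the mutants 0 of these genes passed, and without either *ptc1 ptc6* replicate none of *HSM3*, *PBA1*, *CIC1* and *RSP5* did in *ptc1 ptc6* (adjusted p from 0.0818 to 0.291). The lists come from the known biology of the pathway but were drawn up with earlier results of these data known, and 57 of the 58 symbols in them were found in the table.

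**Figure D5:**
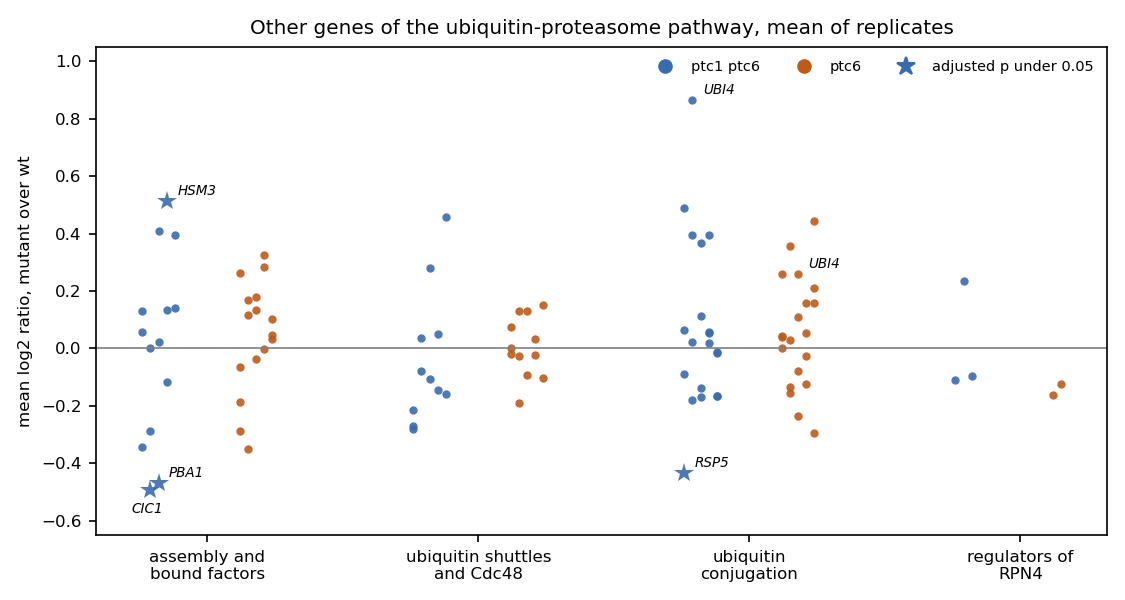
Mean log2 ratio (vertical axis, mutant over wt, mean of 2 replicates) of each tested gene in 4 lists of the ubiquitin-proteasome pathway, in *ptc1 ptc6* (left of each pair, blue) and *ptc6* (right, brown). Stars mark the 4 genes past an adjusted p of 0.05 in *ptc1 ptc6*, *HSM3* at 0.51, *CIC1* at -0.49, *PBA1* at -0.47 and *RSP5* at -0.43; *UBI4*, at 0.86 and 0.26, did not pass.

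The 34 genes lie on 13 of the yeast chromosomes and none of them overlaps another annotated gene. *PRE4* and *RPN12*, with 1 gene between them, had means of -0.04 and -0.31 in *ptc1 ptc6*, and *RPT4* and *RPN8*, also with 1 gene between them, had 0.0088 and -0.24. In *ptc6* these were 0.13 and 0.13 for the first pair and 0.13 and 0.033 for the other.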

How the data were processed

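Transcript levels were measured on 8 two-colour arrays of yeast ORFs, 4 per mutant. The authors deposited 1 table of log2 ratios of mutant over wt, 1 column per array, after removal of small or dim spots and pre-processing with GEPAS, as the methods of the study state. The file does not name the base of the logarithm, and base 2 was taken from the text and fold changes of the study. The normalisation within arrays is not given in the sources used here. The direction was read from the labels and the deleted genes, whose ratios were far below 0. No spot intensities were used, so the precision rests on the 2 replicates of each mutant. In the main fit it also rests on 1 estimate of the spread per gene that both mutants share. No column of the table was left unused (0 unused columns).

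Symbols came from the RefSeq gene table (5662 of 6212 ORFs matched); promoter and protein sequences were not used here, so a planned motif search was not run. The members and the lists were chosen with earlier results of these data known.

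The dye-swapped arrays of a replicate gave 1 mean, and limma 3.58.1 (lmFit and eBayes, under R 4.3.3) tested each mutant against 0 and *ptc1 ptc6* minus *ptc6*, with p-values adjusted by Benjamini-Hochberg over all ORFs with a value in both replicates and a threshold of 0.05. Medians, counts and figures were made with Python 3.11.15, pandas 2.3.3 and matplotlib 3.10.9. The fit was tested on simulated data with known changes. Those changes were larger than any proteasome mean here and had no dye effect. The simulation therefore does not show how often changes of the size seen here would pass. Values on every array were given for *RPN4*, for the highest and lowest member of each sub-assembly by mean in *ptc1 ptc6*, and in the pathway lists for genes past the threshold, *UMP1* and the regulators of *RPN4*. Other genes with values on every array were picked after their values were seen. Alternatives were centring each array on its median, the replicate as a random block over all 8 arrays, each mutant fitted alone, a replicate block, 1 dye only, 2 other filters on missing values and leaving out each replicate.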

Additional observations from a re-analysis of the deposited data

Results flagged for a closer look

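In 3 of the 63 sets of 4 arrays (1 proteasome gene in 1 mutant each), a single array stood apart from the other three, where chance gives about 1 in 20. *PUP2* had 0.757 in experiment 1 of *ptc6*, while its other *ptc6* arrays gave 0.083 to 0.149. In experiment 3 of *ptc1 ptc6*, *RPN6* had 0.485, while its other *ptc1 ptc6* arrays gave -0.016 to 0.047, and *PRE1* had 0.282, while the others gave -0.145 to -0.077. No difference between the mutants passed the test in a proteasome gene.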

How the results depend on the processing

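Of 1217 values of single proteasome genes under the alternatives, 1103 kept their side of the threshold and moved little, 105 moved, 9 passed the threshold where they had not, and 0 changed sign after a call. No proteasome gene was called in the main fit, so the 0 changes of sign after a call do not speak to direction. Some means did change sign between alternatives, as for *RPN1* in *ptc1 ptc6* (-0.70 to 0.29). Others did not, as for *SCL1* in *ptc1 ptc6* (-0.56 to -0.24). The regulatory particle median in *ptc1 ptc6*, 0.0041, was 0.0625 after centring each array, 0.127 with Cy3 alone and -0.1865 with Cy5 alone, and -0.057 to 0.016 with a replicate left out. The proteasome genes past the threshold in *ptc1 ptc6*, 0, became 2 with the replicate as a random block (*RPN12*, *SCL1*), 1 with each mutant fitted alone (*SCL1*) and 1 with Cy5 alone (*RPN1*). Leaving out a *ptc6* replicate gave *SCL1* in *ptc1 ptc6* the same result as fitting each mutant alone. These settings are therefore not separate checks of *ptc1 ptc6*, and the 9 above count *SCL1* under each of them. In the difference, 0 became 2 with the random block (*RPN12*, *PRE3*).

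The 4 pathway genes past the threshold in *ptc1 ptc6* became 14 with the random block, 9 with each mutant fitted alone, 1 with Cy3 alone (*UBC8*) and 11 with Cy5 alone. Leaving out a *ptc6* replicate again gave the result of fitting each mutant alone. In the difference, 0 became 5 with the random block. The cause was not tested. A mutant left with 1 replicate is assumed to vary like the other.

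Replicates of the mutants share a number, and whether they were paired by it is not stated. The correlation of their deviations was -0.21 over 4361 ORFs, which does not settle the pairing. With the replicate block, 0 proteasome genes passed in *ptc1 ptc6*, in *ptc6* and in the difference, and 7 pathway genes passed in *ptc1 ptc6*. With the numbers crossed, added after seeing the data, 1 proteasome gene and 12 pathway genes passed in *ptc1 ptc6*, and 3 pathway genes in the difference.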
